A study of Mus musculus with 6 samples.

Results

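The insulin-like growth factor (IGF) axis was examined in RNA from mouse skin cultures that the labels call endothelial cells (ECs). It comprised 9 genes chosen by name from the 55487 gene identifiers of the count table: the ligand gene Igf1, the receptor genes Igf1r and Igf2r, and the binding protein genes Igfbp2, Igfbp3, Igfbp4, Igfbp5, Igfbp6 and Igfbp7. All 9 were found under their symbols and all 9 passed the filter on low counts, among 19015 tested genes. The cells came from skin of C57BL/6 mice aged 2 to 3 months, with the tissue of 4 to 6 mice used for an isolation, and were enriched with CD31 beads. Cultures enriched in this way can keep other skin cells. Of 6 cultures, 3 were kept in medium with 5 mmol/L glucose (normal glucose) and 3 in medium with 20 mmol/L glucose (high glucose), both for 48 hours. No osmotic control group was among the samples, and the study counts its replicates as mice while its protocol joins the skin of several mice for an isolation. The sources used here therefore leave unclear whether the 3 cultures of a group came from separate isolations, and P values measure only the spread between these cultures, which may be technical.

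IGF1 and IGF2 are small secreted proteins related to insulin. IGF1 acts through the IGF1 receptor, a tyrosine kinase encoded by Igf1r that drives growth and survival signalling, whereas the receptor encoded by Igf2r takes up IGF2 for breakdown and sorts lysosomal enzymes. Secreted binding proteins hold IGFs in the pericellular space and can block or prolong their action, and proteases that cleave them set IGFs free. In skin, fibroblasts are a well-known source of IGF1 for neighbouring cells.

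The labelled cell type was checked against its markers. Pecam1, which encodes CD31, had between 9 and 19 counts in each of the 6 libraries of 120192466 to 146881356 counts, and the 12 endothelial markers together reached between 73.8 and 77.0 CPM (counts scaled to a common library total and normalized with TMM) in normal glucose and between 57.0 and 57.6 CPM in high glucose, with 2 called higher and 3 lower. Of all tested genes, 16.9% were called higher and 14.5% lower in high glucose. Tie1 and Cldn5 had at most 2 and 4 counts. Flt1, a VEGF receptor gene, made up most of the sum, with 52.9, 56.6 and 56.3 CPM in normal glucose and 38.6, 38.3 and 38.3 CPM in high glucose, and per kilobase of exon it and Egfl7 (4.09 and 3.10 CPM in normal glucose) stood above the median of all tested genes, 2.46. The 12 fibroblast markers together reached between 38897 and 42126 CPM in normal glucose and between 70938 and 75881 CPM in high glucose. These sums are not divided by gene length, and the fibroblast list includes the collagen genes Col1a1, Col1a2 and Col3a1. Its log2 fold changes ran from -1.27 to 1.39, with 9 genes called higher and 3 lower. Per kilobase in normal glucose, Kdr, Cdh5, Tek, Vwf, Esam, Erg and Emcn lay between 0.00607 (Emcn) and 0.549 CPM (Kdr), below the median of 2.46. Pecam1, Tie1 and Cldn5 were thus at or near 0 in cultures labelled as ECs. Of the 12 endothelial markers, only Flt1 and Egfl7 stood above the median. The values below describe the RNA of the whole cultures. In such bulk samples, more cells of a type and more RNA per cell cannot be told apart.

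Among the 9 genes, Igf1, Igfbp3, Igfbp4, Igfbp5 and Igfbp7 were called higher and Igfbp6 was called lower in high glucose than in normal glucose, with the quasi-likelihood test of edgeR over all tested genes and a threshold of 0.05 on the adjusted P. Igf1r, Igf2r and Igfbp2 did not pass. Of all tested genes, 31.4% were called, 16.9% as higher and 14.5% as lower. Among the 10012 genes whose mean log2 CPM was 3 or more, which include 8 of the 9 genes, these shares were 23.6% and 14.6%. The groups did not overlap for 7 of the 9 genes, 6 of them higher and 1 lower in high glucose, as for 46.4% of all tested genes (25.1% higher and 21.3% lower). The median log2 fold change of the 9 genes was 0.19, beside 0.0062 for all tested genes. Igf1 and Igfbp4 about doubled, Igfbp5 rose by more than a fold of 1.5, and the changes of Igfbp3, Igfbp6 and Igfbp7 were smaller than that.

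Upstream sequence is shown for the 3 genes with the largest rises and for the gene that fell, since these carry the contrast described here. Each run holds the 250 bases before the RefSeq start of the gene on GRCm38.p6, 5′ to 3′ on the strand of the gene. They lie at chr10:87860861-87861110 (plus strand, Igf1), chr11:99040994-99041243 (plus strand, Igfbp4), chr1:72874866-72875115 (minus strand, Igfbp5) and chr15:102143936-102144185 (plus strand, Igfbp6). Capitals mark exact matches to the TATA box letters TATAAA, or TTTATA for the other strand. Variants such as tatttaaaag in the Igfbp5 run are not marked, so a run without capitals may still hold a TATA box.
Igf1: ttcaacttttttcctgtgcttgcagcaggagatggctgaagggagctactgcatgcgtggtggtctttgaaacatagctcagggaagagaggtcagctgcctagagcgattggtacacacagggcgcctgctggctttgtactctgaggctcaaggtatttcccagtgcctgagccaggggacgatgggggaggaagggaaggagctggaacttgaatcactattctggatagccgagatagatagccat
Igfbp4: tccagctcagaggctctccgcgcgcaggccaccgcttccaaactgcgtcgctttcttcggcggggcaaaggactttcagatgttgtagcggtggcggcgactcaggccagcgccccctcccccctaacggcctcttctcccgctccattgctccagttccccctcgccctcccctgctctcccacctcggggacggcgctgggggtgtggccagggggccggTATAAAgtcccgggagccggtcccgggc
Igfbp5: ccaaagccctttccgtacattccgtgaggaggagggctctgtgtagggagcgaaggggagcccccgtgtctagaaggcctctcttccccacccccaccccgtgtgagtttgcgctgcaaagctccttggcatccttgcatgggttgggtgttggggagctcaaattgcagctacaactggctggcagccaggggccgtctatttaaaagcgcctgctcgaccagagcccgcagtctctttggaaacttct
Igfbp6: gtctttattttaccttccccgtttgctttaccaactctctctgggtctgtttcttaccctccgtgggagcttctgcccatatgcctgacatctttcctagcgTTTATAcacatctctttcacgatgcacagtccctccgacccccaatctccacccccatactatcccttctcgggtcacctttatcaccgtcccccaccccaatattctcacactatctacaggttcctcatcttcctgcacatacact
Igfbp4 has TATAAA 28 bases before its start, and Igfbp6 has the reversed letters 148 bases before its own. Of 32851 such windows in the reference table, 12.4% hold these letters in either orientation. A GC box (GGGCGG or CCGCCC, in 32.7% of all windows) occurs in none of the 4 printed windows, nor does the E-box CACGTG (6.02%) or the forkhead element TGTTTAC with its reverse GTAAACA (3.17%). GC boxes occur in windows of Igf1r, Igf2r, Igfbp2 and Igfbp7, with 2, 3, 3 and 4 copies, and E-boxes in windows of Igf2r and Igfbp2, with 2 copies and 1 copy. The G and C content was 52.8% for Igf1, 69.2% for Igfbp4, 58.8% for Igfbp5 and 49.6% for Igfbp6, beside a median of 52.4% over all windows. These letter matches are descriptions of the windows. Igf1 has 8 annotated transcripts, and its RefSeq start used here lies downstream of the start of the gene in GENCODE. For Igfbp5, on the minus strand, the gene starts at 72874884 in GENCODE, so its window overlaps the annotated gene slightly. Igfbp6 starts at 102144362 in GENCODE, downstream of the end of its window at 102144185. The distances given here are therefore distances from the RefSeq start only.

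Igf1 was the ligand of the group. Its gene spans 87858265 to 87937042 of chromosome 10 (GRCm38, plus strand; positions of the other genes are on the same build). Normal-glucose cultures held 27.3, 29.7 and 26.7 normalized CPM of Igf1 and high-glucose cultures held 54.8, 60.5 and 58.2 CPM, with 3414 counts in the lowest library and 7839 in the highest. Every high-glucose culture lay above every normal-glucose culture, with a gap between the groups that was wide beside the spread within them. The means were 27.9 ± 1.61 and 57.8 ± 2.89 CPM (SD, n = 3), a 2.07-fold rise with a 95% interval of 1.88 to 2.28 (log2 fold change 1.05, standard error 0.062, adjusted P = 9.6e-07). Among tested genes, 413 had a larger fold change in the same direction. An exact permutation test over the 6 cultures cannot go below P = 0.1, two-sided, which is the value Igf1 reached. The antisense gene Igf1os, which lies within the same region without sharing exons, had at most 8 counts in a culture.

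**Figure D1:**
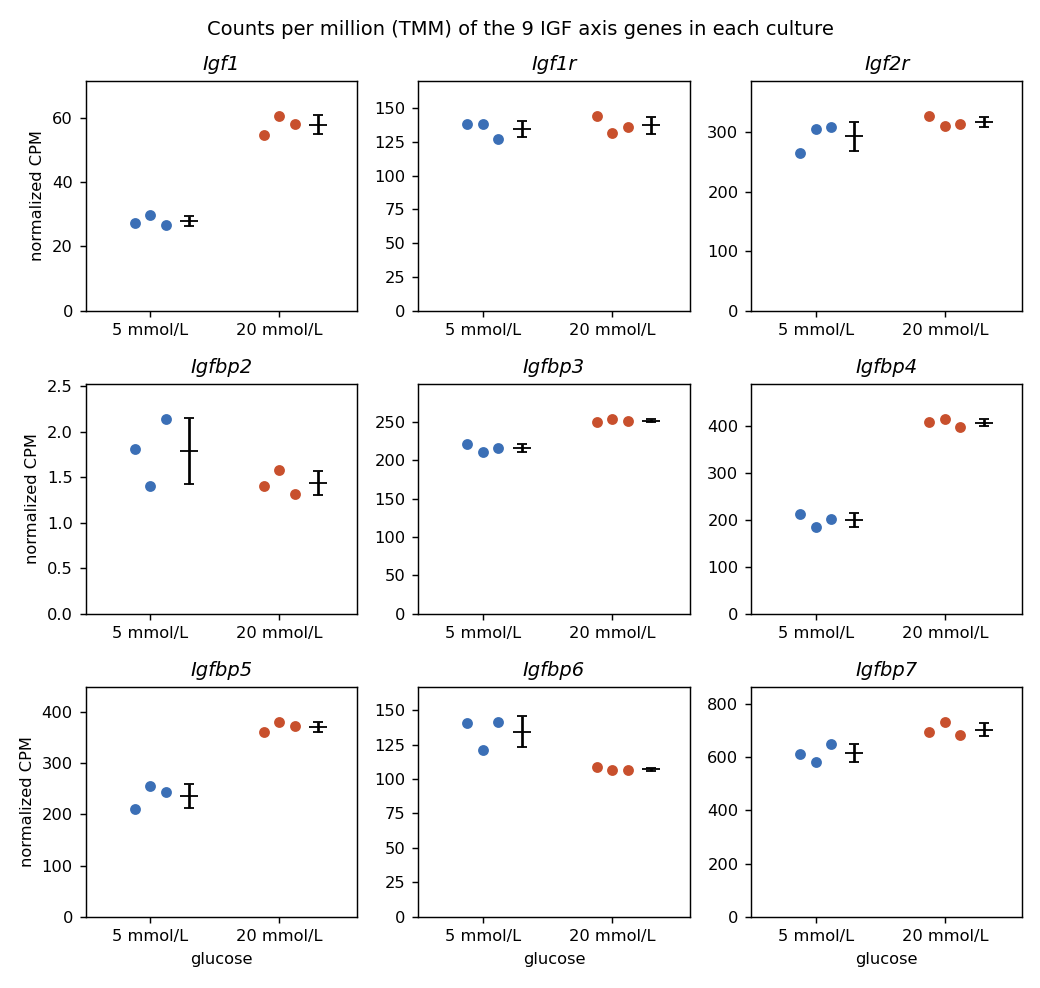
Normalized CPM of the 9 genes (vertical axes, each from 0) in the 3 cultures at 5 mmol/L and the 3 at 20 mmol/L glucose; points are cultures in the order of their replicate numbers, and bars are the mean and SD. The groups are far apart for Igf1, Igfbp4 and Igfbp5, lie close together for Igfbp7, and overlap for Igf1r and Igfbp2.

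The receptor gene for IGF1 was not called. Igf1r (chromosome 7, 67952827 to 68233668, plus strand) measured 138, 138 and 128 normalized CPM in normal glucose and 144, 131 and 136 CPM in high glucose, and the groups overlapped. Its log2 fold change was 0.030 with a 95% interval of -0.097 to 0.16 (adjusted P = 0.733), so a change beyond -6.53% or 11.5% lay outside the interval. The sign was not stable: it was -0.085 with scaling by library size alone, -0.013 with upper quartile normalization, -0.017 without the normal-glucose culture 3 and -0.025 without the high-glucose culture 1. None of these passed the threshold.

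Igf2r, the uptake receptor (chromosome 17, 12682406 to 12769664, minus strand), measured 265, 305 and 309.8 normalized CPM in normal glucose and 327, 310.9 and 314 CPM in high glucose. The groups were separated only by the narrow step from 309.8 to 310.9 CPM. Its log2 fold change of 0.11 had a 95% interval of -0.033 to 0.26 and missed the threshold (adjusted P = 0.220), and with library size scaling it was -0.0012. The long noncoding RNA Airn, which is transcribed across part of Igf2r from the opposite strand and takes part in its imprinting, shares no annotated exon with it. For Airn the log2 fold change was 0.039 with a 95% interval of -0.27 to 0.34 (adjusted P = 0.857).

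The binding proteins moved unequally. Igfbp4, whose product restrains IGF action until it is cleaved, lies on chromosome 11 from 99041244 to 99054392 on the plus strand. It measured 213, 184 and 202 normalized CPM in normal glucose and 407, 414 and 398 CPM in high glucose. The lowest high-glucose culture thus stood far above the highest normal-glucose culture. The rise was 2.03-fold with a 95% interval of 1.85 to 2.23 (log2 fold change 1.02, standard error 0.061, adjusted P = 1.0e-06 from the quasi-likelihood test), and 436 tested genes had a larger one.

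Igfbp5, which encodes a binding protein that attaches to extracellular matrix, lies on chromosome 1 from 72857932 to 72874884 on the minus strand. In normal glucose it measured 210.4, 255 and 244 CPM, and in high glucose 360.2, 380.0 and 372 CPM. The cultures in normal glucose varied more among themselves (SD 23.4 CPM) than those in high glucose (SD 9.96 CPM), and the groups did not overlap. This was a 1.57-fold rise with a 95% interval of 1.40 to 1.75 (log2 fold change 0.65, standard error 0.071, adjusted P = 7.3e-05).

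Igfbp6 was the only one of the 9 genes called lower. Its product binds IGF2 with a preference over IGF1. The gene lies on chromosome 15 from 102144362 to 102149511 on the plus strand. It measured 141, 121 and 141 CPM in normal glucose and 108, 106 and 107 CPM in high glucose, with no overlap between the groups. The change was -20.3% with a 95% interval of -27.8% to -11.9% (log2 fold change -0.33, standard error 0.065, adjusted P = 0.00343). Its call held in all 18 alternative fits, in which the log2 fold change lay between -0.44 and -0.30.

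Igfbp3 encodes the main carrier of IGFs in blood, which also acts locally in tissues. It lies on chromosome 11 from 7206086 to 7213923 on the minus strand. It measured 221, 210.3 and 216 CPM in normal glucose and 250.1, 253 and 251 CPM in high glucose. The groups did not overlap, and the cultures of each group lay close together. The rise was 16.7% with a 95% interval of 8.38% to 25.6% (log2 fold change 0.22, adjusted P = 0.00542). With scaling by library size alone the log2 fold change was 0.11 and did not pass (adjusted P = 0.0949); that scaling moved the median of all tested genes to -0.11.

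Igfbp7, whose product binds IGFs weakly and is deposited in vessel walls and matrix, lies on chromosome 5 from 77349240 to 77408041 on the minus strand. It measured 612, 582 and 650 CPM in normal glucose and 695, 730.5 and 683 CPM in high glucose. All high-glucose cultures were above all normal-glucose cultures, but by little. The rise was 14.3% with a 95% interval of 4.68% to 24.9% (log2 fold change 0.19, adjusted P = 0.0269). The call was lost without the normal-glucose culture 2 (log2 fold change 0.14, adjusted P = 0.0823) and without the high-glucose cultures 1, 2 or 3 (0.18, 0.15 and 0.20, with adjusted P = 0.102, 0.137 and 0.0834). It was also lost with library size scaling (0.078, adjusted P = 0.275), upper quartile normalization, no filter on low counts and the replicate block (adjusted P = 0.0648, 0.0751 and 0.0630). Its exons share 85 bases, or 7.03% of their length, with Polr2b, an RNA polymerase II subunit gene on the other strand, and no source used here says whether strand was counted. For Polr2b the log2 fold change was 0.048, with no call (adjusted P = 0.517).

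Igfbp2 was the scarcest of the genes and had between 178 and 274 counts per culture. It lies on chromosome 1 from 72824503 to 72852474 on the plus strand, with 5457 bases and no other protein-coding gene between it and Igfbp5. It measured 1.81, 1.41 and 2.14 normalized CPM at normal glucose and 1.40, 1.58 and 1.32 CPM at high glucose. The groups overlapped because the normal-glucose culture 2 lay among the high-glucose values. Its log2 fold change of -0.32 had a 95% interval of -0.67 to 0.038 and was not called (adjusted P = 0.160). Without the normal-glucose culture 2 it was -0.47 and passed (adjusted P = 0.0308). The neighbours Igfbp2 and Igfbp5 thus had estimates of opposite sign, of which the one of Igfbp5 was called.

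**Figure D2:**
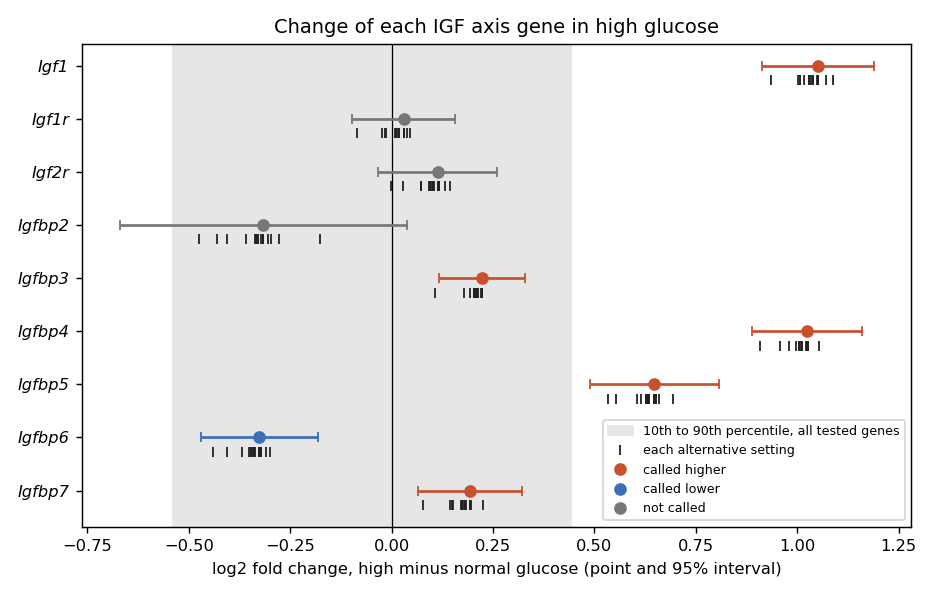
Log2 fold change of each gene, high minus normal glucose (horizontal axis), as a point with its 95% interval; short ticks under each point are the values in the 18 alternative fits, and the grey band spans the 10th to 90th percentile of all tested genes, from -0.54 to 0.44. Igf1, Igfbp4 and Igfbp5 lie to the right of the band in the main fit and in every alternative fit, whereas the ticks of Igf1r and Igf2r cross 0.

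Levels can be compared between genes only per length, here as normalized CPM per kilobase of merged exons. Igfbp7 was the most abundant of the 9 genes in both groups, with 508 ± 27.9 at normal and 581 ± 20.5 at high glucose (mean and SD of 3 cultures), above 99.7% of the tested genes in each. Igfbp6 and Igfbp3 followed in normal glucose with 121 ± 10.2 and 68.9 ± 1.69. Igfbp4 and Igfbp5 came next with 45.3 ± 3.30 and 39.4 ± 3.89, and their ranges over the normal-glucose cultures overlapped. Neighbours in this order did not overlap otherwise. The lowest levels were those of Igf2r (31.5 ± 2.66), Igf1r (8.01 ± 0.362), Igf1 (2.82 ± 0.163) and Igfbp2 (0.968 ± 0.198), and the median of all tested genes was 2.46. RNA for the ligand was therefore near the middle of the tested genes, while RNA for 5 of the 6 binding proteins lay above 93.5% of them.

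In high glucose the order changed at a single place, where Igfbp4 (92.1 ± 1.78) stood above Igfbp3 (80.4 ± 0.546). Igfbp6 at 96.4 ± 1.01 stayed just above Igfbp4, with the lowest Igfbp6 culture at 95.8 and the highest Igfbp4 culture at 93.8. This last step depended on the length used. Per kilobase of the longest transcript, Igfbp4 and Igfbp3 had means of 106 and 104 in high glucose, above Igfbp6 at 96.4. Igf1 reached 5.84 ± 0.292, above 65.2% of the tested genes in high glucose, compared with 52.1% in normal glucose.

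**Figure D3:**
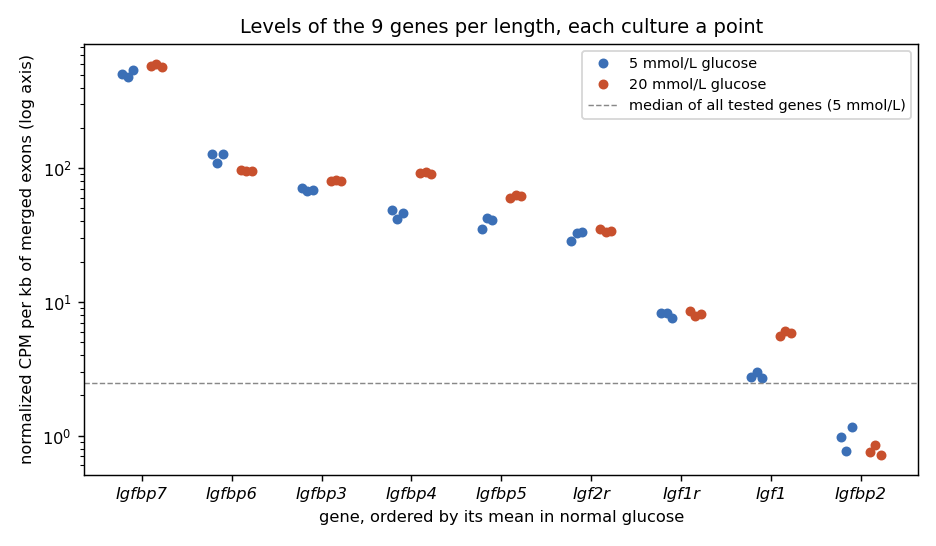
Normalized CPM per kilobase of merged exons (vertical log axis) for each of the 9 genes, ordered by their mean in normal glucose; each point is a culture, and the dashed line is the median of all tested genes in normal glucose, 2.46. Igfbp7 stands highest in both groups and Igfbp2 lowest, and Igfbp4 passes Igfbp3 in high glucose.

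Within a library, ratios of these levels do not depend on the scaling between libraries. The 6 binding proteins summed to 784 ± 39.2 CPM per kilobase at normal and 913 ± 23.4 at high glucose (n = 3 cultures each, SD). Unlike the ratios, this sum depends on the scaling, and with library size scaling it was 815 and 877. Igfbp7 made up 64.9% ± 0.600 and 63.7% ± 0.605 of the sum. The share of Igfbp4 was 6.13%, 5.62% and 5.58% in the normal-glucose cultures and 10.2%, 9.99% and 10.1% in the high-glucose cultures. The share of Igfbp6 was 16.1%, 14.7% and 15.5% and then 10.8%, 10.2% and 10.7%. Thus Igfbp4 and Igfbp6 stood far apart in the mixture in normal glucose and close together in high glucose, with no overlap between groups for either share. Igfbp3 held 8.80% ± 0.349 and 8.81% ± 0.181. For every 100 units of binding protein RNA the normal-glucose cultures held 0.351, 0.404 and 0.328 units of Igf1 RNA, and the high-glucose cultures 0.611, 0.651 and 0.657 units. With Igfbp7 left out of the sum, there were 1.03 ± 0.108 units in normal and 1.76 ± 0.0789 units in high glucose. Such ratios between genes depend on the lengths used. The Igf2r to Igf1r ratio was 3.94 ± 0.463 and 4.17 ± 0.0881, and here the groups overlapped.

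The other genes of the pathway were read from lists arranged by role, with 73 genes of which 67 were tested. Of these, 32 were called higher and 10 lower, with a median log2 fold change of 0.16. The share called higher, 47.8%, is to be read beside 16.9% of all tested genes and 23.6% of the more abundant ones. Lower calls made up 14.5% of all tested genes. The 9 genes and these lists were chosen with earlier results of these data known, so their shares are descriptions only. With at least a 1.5-fold change required, 9 of the 67 were called higher and 4 lower, beside 895 higher and 1165 lower of all 19015 tested genes.

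Among the other ligands and carriers, Igf2 rose with Igf1. It measured 10.4, 12.1 and 11.5 CPM in normal glucose and 20.3, 20.1 and 21.2 CPM in high glucose, a 1.81-fold rise with a 95% interval of 1.63 to 2.02 (adjusted P = 8.5e-06 from the same test). Both IGF ligands were thus called higher, with intervals that overlap. Per kilobase, Igf2 stood at 1.98 ± 0.152 and 3.59 ± 0.108 in the groups, below Igf1 in both. The gene Gm49394 shares 62.8% of the exon length of Igf2 on the same strand and had 0 counts in every culture, so how reads were divided between them is uncertain. Igfals, which encodes the acid-labile subunit of the circulating IGF complex, rose by 1.13 on the log2 scale from few counts, between 33 and 82 per culture (adjusted P = 9.4e-04), whereas Esm1, an endothelial proteoglycan gene related to the binding proteins, fell by 0.95 on the log2 scale. Ins1, Ins2 and Igfbp1 had 0 counts in every culture, and Igfbpl1 had at most 2. Igfbp1 lies 3539 bases from Igfbp3, which was abundant.

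The proteases that cleave the binding proteins, with their inhibitors, held 15 tested genes, of which 10 were called higher and 2 lower. The shares were 16.9% and 14.5% for all tested genes, and 23.6% and 14.6% for the more abundant ones. Pappa2, which encodes a metalloprotease that cleaves IGFBP3 and IGFBP5, went from 1.37, 1.76 and 1.72 CPM to 5.51, 6.24 and 5.53 CPM, the largest fold rise in these lists at 3.56-fold with a 95% interval of 2.96 to 4.27 (adjusted P = 1.8e-06). Htra3, a secreted serine protease gene, and Adam12, a metalloprotease gene, rose 2.14-fold and 1.77-fold. Pappa and Stc1 are described because they bear on Igfbp4, after their values were seen. Pappa encodes the protease that cleaves IGFBP4, and it measured 52.1, 69.5 and 61.6 CPM in normal glucose and 102, 102 and 97.9 CPM in high glucose. This 1.65-fold rise (95% interval 1.44 to 1.89, adjusted P = 1.7e-04) accompanied that of its substrate. Stanniocalcins bind and inhibit this protease, and their genes moved in opposite directions. Stc1 rose by 0.30 on the log2 scale (adjusted P = 0.00231), and Stc2 fell from 24.2, 24.5 and 26.3 CPM to 18.8, 18.2 and 19.2 CPM (log2 fold change -0.42, adjusted P = 3.0e-04). Plau, which encodes the activator that turns plasminogen into plasmin, fell by 0.79 on the log2 scale.

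Below the receptor, 12 of 27 tested signalling genes were called higher and 3 lower, beside 16.9% and 14.5% of all tested genes. Among the more abundant genes these shares were 23.6% and 14.6%. Irs2, an adaptor that couples the receptor to phosphoinositide 3-kinase, rose by 0.75 on the log2 scale (adjusted P = 3.4e-05). Ptpn1, which encodes a phosphatase that switches the insulin and IGF1 receptors off, rose by 0.72 (adjusted P = 4.6e-06), and Pik3r1, a regulatory subunit of the kinase, by 0.68 (adjusted P = 6.8e-06). Activating and inhibiting components thus stood side by side among the rises. Mdm2, which encodes a ubiquitin ligase best known for degrading p53, Pik3cb, a catalytic subunit, and Grb14, an adaptor that inhibits the insulin receptor, had log2 fold changes of -0.60, -0.37 and -0.22. Insr, the insulin receptor gene, is added after its values were seen, for comparison with Igf1r: it measured 44.0, 48.8 and 42.5 CPM in normal glucose and 64.3, 63.8 and 62.4 CPM in high glucose, a 1.41-fold rise with a 95% interval of 1.28 to 1.55 (adjusted P = 1.6e-04). Its interval lies above that of Igf1r (0.935 to 1.11 as a fold), though the difference between the 2 receptors was not itself tested.

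Growth hormone induces Igf1 through its receptor, JAK2 and STAT5. Of the 7 genes of this branch, 5 were called higher and 1 lower, beside 16.9% and 14.5% of all tested genes. Among the more abundant genes these shares were 23.6% and 14.6%. Jak2, Cish and Stat5a had log2 fold changes of 0.51, 0.46 and 0.45 (adjusted P = 1.8e-04, 3.3e-04 and 7.7e-05); Cish is itself a STAT5 target and feedback inhibitor. Socs2, another such target and inhibitor, was not called (log2 fold change -0.033 with a 95% interval of -0.18 to 0.11, adjusted P = 0.742) and is named after its values were seen. Ptpn6, a phosphatase gene of blood cells, had at most 71 counts and fell by 0.97 on the log2 scale. Of the proteins that bind Igf2 mRNA, 1 of 3 genes was called, beside 31.4% of all tested genes. The called gene was Igf2bp2, which rose by 0.28.

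Igf2r works in the sorting of enzymes that carry mannose 6-phosphate. Of the 11 genes of that route, 2 were called higher and 3 lower, beside 16.9% and 14.5% of all tested genes. The shares were 23.6% and 14.6% for the more abundant genes. The 3 lower genes were Vps26a, Vps29 and Vps35, which encode the core subunits of retromer, the coat that returns this receptor from endosomes. Their log2 fold changes were -0.34, -0.31 and -0.27 (adjusted P = 0.00140, 0.00132 and 0.00590). Sort1, another sorting receptor gene, and Gnptab, which encodes the enzyme that makes the mannose 6-phosphate tag, rose by 0.29 and 0.24. M6pr, which encodes the smaller receptor for the tag and is named after its values were seen, was not called (log2 fold change 0.13, adjusted P = 0.118).

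**Figure D4:**
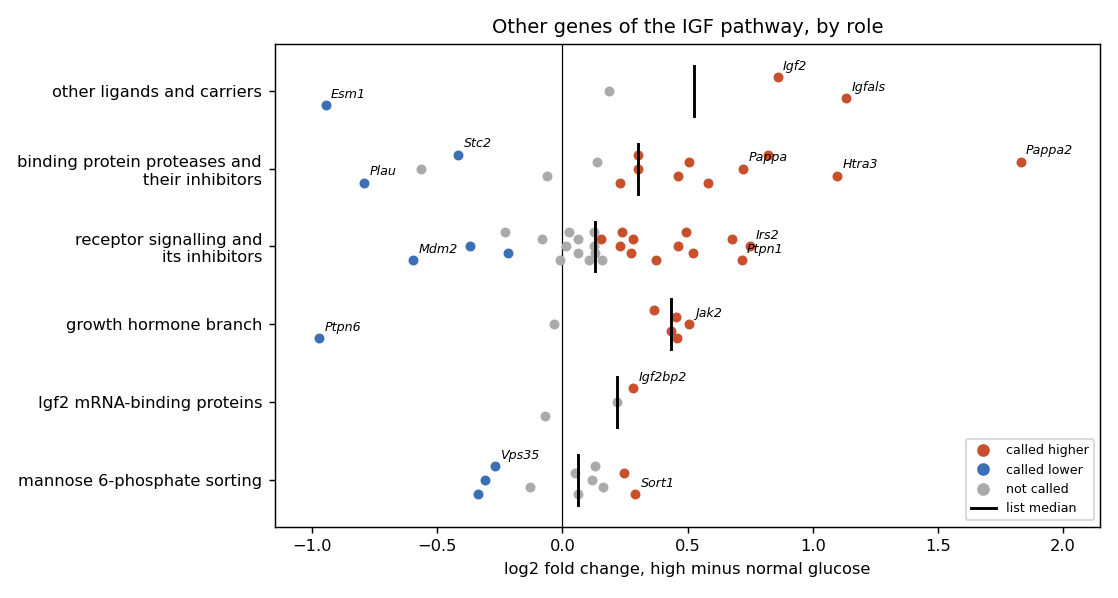
Log2 fold change, high minus normal glucose (horizontal axis), of the 67 tested genes of the 6 pathway lists (rows); red points were called higher, blue points lower and grey points were not called, and black bars are list medians. Pappa2 lies farthest to the right at 1.83, and the 3 blue points of the mannose 6-phosphate row are the retromer genes.

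Markers of several cell types also changed between the groups, in different directions. The counts below are to be read beside 16.9% of all tested genes called higher and 14.5% called lower. Of the 12 fibroblast markers, 9 were called higher and 3 lower, over the summed range given above. The summed endothelial markers were lower in every high-glucose culture than in any normal-glucose culture, but Flt1 made up most of that sum. Of 9 endothelial markers tested, Flt1, Cdh5 and Egfl7 were called lower, Tek and Erg higher, and 4 were not called. Adipocyte markers summed to between 4284 and 4564 CPM in normal glucose and between 6468 and 6963 CPM in high glucose, with 4 of 5 tested called higher. Mural cell markers summed to between 1196 and 1281 CPM and between 1082 and 1152 CPM, with 1 of 9 called higher and 5 lower. Macrophages are another source of Igf1, and their 10 markers together reached between 8.71 and 9.86 CPM in normal glucose and between 5.87 and 6.66 CPM in high glucose, with 3 of 4 tested called lower, none called higher, and C1qb at 0 in every culture. Keratinocyte markers summed to at most 3.00 CPM. The part of the endothelial, fibroblast, adipocyte, mural cell and macrophage markers in the changes of the IGF genes was not tested.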

How the data were processed

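RNA of 6 cultures was sequenced, 3 in normal glucose and 3 in high glucose, with groups and replicate numbers taken from the labels. According to the submitters' processing notes and the methods, Trimmomatic was used for trimming, HISAT2 for alignment (GRCm38) and StringTie for gene counts. The authors deposited raw counts without normalization. Versions, annotation release and strand setting are not given in the sources used here.

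Symbols, positions and exon lengths came from GENCODE M21 on GRCm38, which matched 55227 of 55487 identifiers; the other 260 held 0.0069% of the counts. In R 4.3.3, edgeR 4.0.16 was run over all genes with filterByExpr (minimum count 10, minimum total 15), TMM normalization, the quasi-likelihood test and Benjamini-Hochberg adjustment at 0.05. Standard errors were taken from the test statistic, and CPM are TMM-normalized. A floor of 3 counts was between 0.0211 and 0.0258 CPM, which covers counting error only. Chi-square tests between replicates gave 9.03 or more per degree of freedom, so all 6 libraries were kept as separate samples. Counts of 2 were nearly as frequent as counts of 1, so halved counts were tried in case both reads of a pair had been counted. The fit was tested on simulated counts. Upstream sequences came from RefSeq on GRCm38.p6, where all 9 genes matched.

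The genes and lists were chosen with earlier results of these data known, so no P adjusted over a list alone is given. Named genes were the 9 genes, up to 3 largest called rises and 3 largest called falls of each pathway list, listed genes that were not detected, genes overlapping the 9, and the 3 genes most like the one that changed most. Pappa, Stc1, Insr, Socs2, M6pr, Airn, Igf1os and Gm49394 were named outside this rule, after their values were seen. Cell type markers were named where they changed between the groups, in either direction, or bear on the label. Alternatives were the likelihood ratio test, the exact test, DESeq2 1.42.0, limma-voom 3.58.1, robust fitting, other scalings, filters, thresholds and lengths, halved counts, the replicate block and each culture left out.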

Additional observations from a re-analysis of the deposited data

How the results depend on the processing

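Across 18 alternative fits, Igf1, Igfbp4, Igfbp5 and Igfbp6 kept direction and call. Library size scaling gave log2 fold changes of -0.085 for Igf1r, -0.0012 for Igf2r, 0.11 for Igfbp3 (adjusted P = 0.0949) and 0.078 for Igfbp7 (adjusted P = 0.275), and moved the median of all tested genes to -0.11. Upper quartile normalization gave -0.013 for Igf1r and 0.15 for Igfbp7, and the fit with no filter on low counts gave 0.17 for Igfbp7, which lost its call in both (adjusted P = 0.0648 and 0.0751). With the replicate block, the value for Igfbp7 was 0.19 (adjusted P = 0.0630), and the block changed no other call of the 9 genes. It gave 2909 of all genes higher and 2418 lower. Deviations of same-numbered cultures correlated at -0.025, 0.0038 and 0.013, so the numbers are not taken to pair the cultures. As a hint from the data, normal-glucose cultures 1 and 3 both correlated best with high-glucose culture 3.

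With each culture left out in turn, log2 fold changes ranged from -0.025 to 0.046 for Igf1r (-0.017 without normal-glucose culture 3, -0.025 without high-glucose culture 1), from -0.47 to -0.18 for Igfbp2 and from 0.14 to 0.23 for Igfbp7. Then 1 to 2 of the 9 genes were called lower, 4 to 5 higher, and 2048 to 3065 of all genes were called lower and 1988 to 3149 higher. Library size scaling gave 3 of the 9 genes higher, with 4884 of all genes lower and 1819 higher. An adjusted P under 0.01 gave 1671 and 1946. At least 1.5-fold left 0 of the 9 genes lower and 3 higher, 1165 and 895 of all genes, and 4 and 9 pathway genes. Per kilobase of the longest transcript, the 6 binding proteins summed to 815 in normal and 955 in high glucose. Igfbp7 then held 62.8% of the sum in normal and 61.3% in high glucose. Library size scaling gave sums of 815 in normal and 877 in high glucose. Beyond fewer cultures or stricter thresholds, the cause was not tested. Igfbp2, with 178 to 274 counts, had the widest interval of the 9 genes.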

Other observations

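The following 3 genes were closest to Igf1 in pattern among 9981 other genes whose log2 CPM, averaged over the 6 cultures, was 3 or more (the 10012 genes above are by edgeR's own average, which is computed differently). The measure was the mean absolute distance over the 6 cultures between log2 CPM values, each centred on the normal-glucose mean of its gene. Il33, which encodes an alarmin cytokine, lay at a distance of 0.021, Txnip, a glucose-induced arrestin gene, at 0.042 and Ccdc80, a secreted matrix protein gene, at 0.045. Their log2 fold changes were 1.04, 1.06 and 1.05, beside 1.05 for Igf1. That closeness was fixed by the measure, which picks genes with a similar change.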
